A study of Homo sapiens with 6 samples.

Results

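Polyploid giant cancer cells (PGCCs) of the ovarian cancer cell line Hey were compared with untreated Hey parental cells in 1 RNA sequencing library each. The members of this comparison are the genes with at least 1 TPM (transcripts scaled to a fixed total, a share of each library's transcripts corrected for transcript length) in either library, which left 14340 of the 59008 gene symbols in the table. The listed values summed to 920497 in the parental and 912407 in the PGCC library, which are not equal. Percentages of TPM below are of such sums. Hey is an established human ovarian carcinoma line that grows as adherent cells. The Hey PGCCs had been exposed to 500 nM paclitaxel for 16 h and had then recovered for 3 days in regular medium, and the parental cells were untreated. The study also holds Hey daughter cells, labelled as 1 clone grown out after the same drug and 30 days of recovery, and the same 3 states of a second ovarian cancer line, SKOV3, whose PGCC library is titled day 7 while its treatment label gives 3 days. These other 4 libraries are quoted only beside the Hey values.

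No condition has a replicate, so no value carries an error and no difference was tested. A gene was called higher or lower in PGCCs when log2(TPM + 1) differed by at least 1, a 2-fold change for genes well above 1 TPM and a larger one for genes near it. This scale understates the change of genes with low TPM. The parental cells had no mock exposure or recovery period stated in the labels, so the drug, the recovery time and the giant cell state cannot be told apart. Whether giant cells were separated from other surviving or dying cells before RNA extraction is not given in the sources used here, and in such a bulk library fewer cells of a type cannot be told apart from less RNA per cell.

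Paclitaxel binds and stabilizes microtubules and blocks cells in mitosis. Cells that leave this block without dividing become tetraploid or more, and repeated rounds of DNA synthesis without division produce giant cells with large or multiple nuclei. Such cells are known to stop dividing for a time, to carry features of senescence, including secretion of inflammatory proteins, and later to release small daughter cells that divide. The transcription factor NF-κB drives many of these secreted proteins, the p53 protein raises the CDK inhibitor p21, and the DREAM repressor complex together with RB proteins keeps genes of DNA replication and mitosis low in arrested cells.

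Both libraries carried the transcripts of a keratin-positive, vimentin-rich carcinoma line. KRT7 stood at 339 TPM in parental cells and 312 in PGCCs, KRT8 at 464 and 345, and KRT18 at 518 and 374. VIM, which encodes the intermediate filament vimentin, read 7341 and 4975 TPM. The lineage factor PAX8 was present at 94.4 and 54.8 TPM, whereas EPCAM, MUC16 and WFDC2 were each under 1.5 TPM in both libraries and WT1 was at 1.34 and 0.53. Of 35 listed markers of other cell types 7 were measured, and only CD68, CDH5 and the fibroblast activation gene FAP were above 5 TPM in either library. Of 15 blood cell markers only CD68 was measured (46.3 and 69.3 TPM) and PTPRC was listed at 0 in both. Of 12 fibroblast markers 4 were measured, all 4 with a change above 0 and 2 of them higher, with a median change of 1.02. The list summed to 12.2 TPM in parental cells and 19.3 in PGCCs, of which FAP made up 11.3 and 12.95. LUM was listed at 0 and at 1.55 TPM, MFAP5 at 0.554 and 2.395, COL1A1 at 0.169 and 1.21, and COL3A1 was under 1 TPM in both. All 4 measured markers reached 1 TPM in PGCCs against 1 in parental cells, in the same direction as many secreted and matrix genes described here, and their part in those results was not tested. Of 8 endothelial markers 2 were measured, CDH5 at 48.5 and 35.5 TPM and ERG at 1.72 and 1.04, while PECAM1 stayed under 1 TPM.

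Most genes differed by less than 2-fold. Of the 14340 measured genes, 1520 (10.6%) were higher and 828 (5.77%) were lower in PGCCs, 83.6% were neither, and the median change was 0.01 with quartiles of -0.38 and 0.49. The counts of each list below are to be read beside these shares of 10.6% and 5.77%. The lists were chosen with earlier results of these data known, so their counts describe the lists and test nothing. In a short list, a few genes past the threshold can match them. Changes of at least 2 on this log2 scale were found for 310 genes that were higher and 124 that were lower. The threshold cut through a dense part of the distribution. There were 290 genes with changes from 1 to under 1.1 and 261 from 0.9 to under 1, with PLPPR2 (1.0009) just inside and AC139795.2 (0.9991) just outside. On the other side SLC25A40 (-1.0002) lay just inside and KANK2 (-0.9997) just outside.

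**Figure D1:**
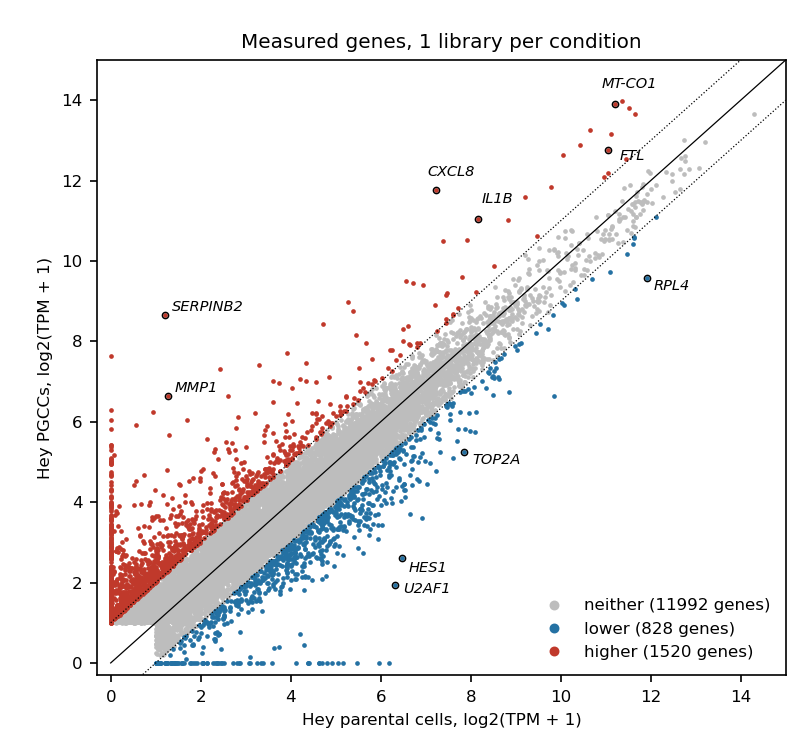
Each point is 1 of the 14340 measured genes, with log2(TPM + 1) in Hey parental cells on the horizontal and in Hey PGCCs on the vertical axis, 1 library each. The solid line marks equal levels and the dotted lines the 2-fold change; the 1520 genes called higher in PGCCs (red) crowd at low parental levels, with 391 of them listed at 0 in parental cells, and the 828 called lower (blue) lie mostly at middle levels.

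The excess of higher genes lay outside the nuclear protein-coding genes. Among 11504 nuclear protein-coding genes 679 (5.90%) were higher and 684 (5.95%) lower, and the median change was -0.07. Long noncoding RNAs split 186 to 10 among 678 measured genes, and pseudogenes 97 to 25 among 343. Small RNA genes split 79 to 30 among 146, and symbols without a single match in the GENCODE release 44 annotation split 461 to 79 among 1650. Level separated the directions as well. Genes whose higher TPM lay between 1 and 2 were called higher in 18.4% and lower in 2.19% of cases, whereas between 50 and 200 TPM the shares were 3.79% and 7.71%. Of the genes called higher, 801 stayed under 5 TPM in PGCCs, and of those called lower, 606 had 10 TPM or more in parental cells. The PGCC library held more symbols, 13930 at 1 TPM or more against 12663, with 1677 in PGCCs only and 410 in parental cells only. TPM was above 0 for 25370 symbols in PGCCs and 19920 in parental cells. Increases of genes at low TPM should be read against that difference. With a filter at 5 TPM the split became 719 higher to 703 lower, with only protein-coding genes 741 to 654, and with quantile normalization 1113 to 977. When the mitochondrial genome was left out and the rest rescaled, the split became 1932 to 639 and the median change 0.16, so small changes of whole gene families below should be read against that shift.

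The strongest increases were in genes of secreted inflammatory proteins, proteases and protease inhibitors. The 15 protein-coding genes with the largest increase included 6 cytokines or chemokines, namely CSF2, TNFSF15, CSF3, CXCL8, CCL20 and IL6. The largest increase belonged to SERPINB2, which encodes plasminogen activator inhibitor 2, at 1.32 TPM in the parental library, 402 in the PGCC and 1.46 in the daughter library. In SKOV3 the same gene read 0.542 TPM in parental cells and 2.61 in PGCCs. Across the 8 inflammation lists 66 of 197 measured genes (33.5%, against 10.6% of all measured genes) were higher and 3 were lower, with a median change of 0.53. These lists were chosen with earlier results known, and some members were measured only through the PGCC library. Part of this contrast can come from that choice and from the filter. In SKOV3 PGCCs 17 of the same 197 genes were higher and 7 lower. These SKOV3 counts cover only genes that reached 1 TPM in a Hey library, and the share over all SKOV3 genes is not given. The difference between the lines was not tested.

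Among 48 listed cytokines and growth factors of inflammation, 29 were measured, 23 were higher and none was lower, with a median change of 1.81. All 29 reached 1 TPM in PGCCs and 20 did so in parental cells, so part of the list was measured only through the PGCC library. Without a filter on low TPM the median was 1.03. The 6 that stayed under the threshold spanned changes down to -0.43. In summed TPM the list stood at 969 in the parental, 8180 in the PGCC and 628 in the daughter library, and CXCL8 and IL1B were the larger part of it in PGCCs. CXCL8, which encodes the neutrophil chemokine interleukin 8, read 149 TPM in the parental library, 3488 in the PGCC and 49.8 in the daughter library. IL1B, the pyrogenic cytokine, stood at 284 TPM in parental cells and at 2105 in PGCCs. For both genes the PGCC library was the single high one among the 3 Hey libraries.

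The colony-stimulating factors CSF2 and CSF3 were low in parental cells. CSF2 (GM-CSF) read 0.481 TPM in the parental library, 59.4 in the PGCC and 0.548 in the daughter library. CSF3 (G-CSF) read 4.39, 158 and 13.3 TPM in the same order. GM-CSF acts on granulocytes and macrophages, and G-CSF on granulocytes. In SKOV3 CSF3 was listed at 0 in both the parental and the PGCC library. IL6, the acute-phase cytokine, stood at 8.74 TPM in the parental library, 168 in the PGCC and 8.69 in the daughter library. TNFSF15, a tumour necrosis factor family ligand, read 0.915, 74.9 and 0.739 TPM. Further ligands above the threshold were CCL20 with 1.45 TPM in parental cells and 49.8 in PGCCs, IL32 with 6.105 and 68.8, and IL24 with 1.24 and 17.02. The 3 neighbouring GRO chemokines shared the direction, CXCL1 at 104 and 705 TPM, CXCL2 at 79.6 and 184, and CXCL3 at 17.6 and 132. These 3 genes are close copies of each other, so the division of reads among them is uncertain.

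**Figure D2:**
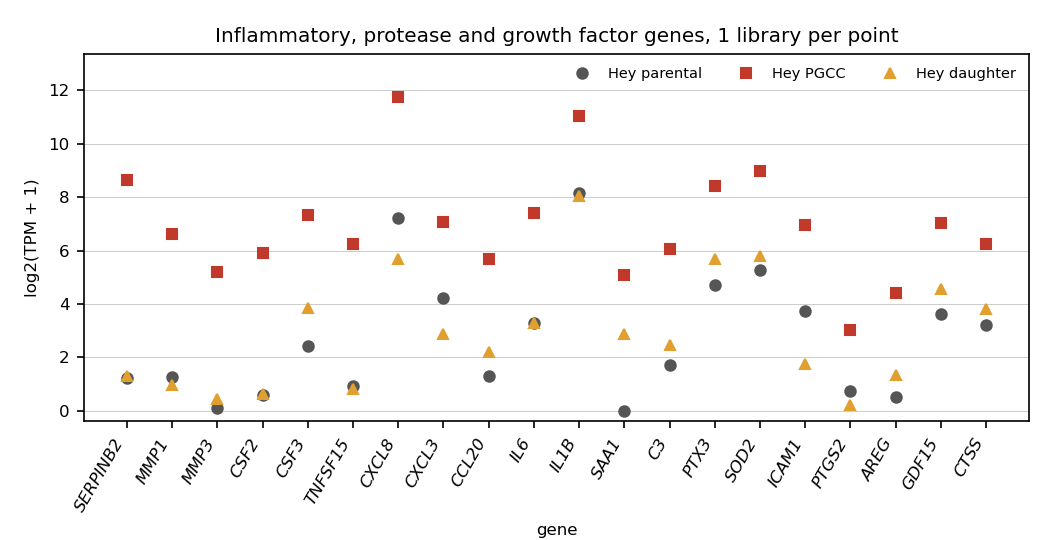
Levels as log2(TPM + 1) of 20 inflammatory, protease and growth factor genes in Hey parental cells (grey circles), PGCCs (red squares) and daughter cells (orange triangles), 1 library per point. For each gene the PGCC library is the highest of the 3, from 7.19 TPM for PTGS2 to 3488 TPM for CXCL8.

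Receptors and signal carriers had smaller changes than the ligands. Of 36 measured genes of this list 7 were higher and none lower, with a median change of 0.33. The interleukin 7 receptor gene IL7R read 3.92 TPM in parental cells and 36.9 in PGCCs, and TNFRSF9 (4-1BB) 0.581 and 8.12. TRAF1, an adaptor of TNF receptor family members such as TNFRSF9, went from 0.574 to 7.86 TPM. The list of NF-κB subunits and their feedback inhibitors had 6 of 20 genes higher and a median change of 0.72. All 6 were inhibitors or regulators of the pathway. NFKBIE, an inhibitor that holds the subunits in the cytoplasm, stood at 3.16 and 27.4 TPM, and TNFAIP3 (A20), a ubiquitin-editing brake, at 14.4 and 72.5. BIRC3, an inhibitor of cell death in the same pathway, read 23.3 and 90.9 TPM. The subunit genes RELA (31.9 and 43 TPM) and NFKB1 (30.9 and 38.9) differed by less than 2-fold.

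Prostaglandin enzymes and secreted effectors of the acute phase formed the inflammation list with the highest median change, 2.24, with 13 of 18 measured genes higher and none lower. Of these 18 genes 17 reached 1 TPM in PGCCs and 11 did so in parental cells. Part of the list was therefore measured only through the PGCC library, which favours increases. Without a filter on low TPM the median was lower but still past the threshold. SAA1, which encodes serum amyloid A, was listed at 0 in parental cells and stood at 32.95 TPM in PGCCs and 6.36 in daughter cells. SAA2 (0 and 8.87 TPM) is a close copy of it, so the division of reads between them is uncertain. Complement component C3 read 2.26, 64.9 and 4.56 TPM in parental cells, PGCCs and daughter cells. PTX3, a soluble pattern recognition protein, read 25.4, 342 and 50.97 TPM. SOD2, the mitochondrial superoxide dismutase, stood at 37.97, 500.3 and 53.9 TPM, and the SKOV3 libraries held 75.3 TPM in parental cells and 165 in PGCCs. The adhesion molecule gene ICAM1 went from 12.3 to 123.2 TPM. The prostaglandin enzymes PTGS2 (cyclooxygenase 2) and PTGES reached only 7.19 and 3.61 TPM.

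Immediate early genes split in direction. Of 29 measured genes 4 were higher and 3 lower, with a median change of 0.05. ATF3, a stress-induced factor, read 10.1 TPM in parental cells and 58.8 in PGCCs, and BTG2, an antiproliferative gene, 5.16 and 36.8. The growth factor-induced genes EGR1 (103 and 20.4 TPM), FOS (52.5 and 11.1) and FOSB (8.38 and 2.99) were lower. The daughter library also held EGR1 at 22.6 TPM. Interferon-stimulated genes had 9 of 34 measured members higher, none lower and a median change of 0.54. IFI27 read 0.8103 and 14.3 TPM, ISG15 3.67 and 14.8, and IFIT2 2.88 and 9.16. Their PGCC levels were modest beside those of the cytokines. In the MHC class I list only HLA-B (73.1 and 219 TPM) and the peptide transporter TAP1 (7.22 and 22.7) passed the threshold among 15 genes. Of 16 measured genes of the immune checkpoint and surface ligand list 2 were higher and none lower, with 6 below 0 and a median change of 0.26. That list summed to 3807 TPM in parental cells and 3224.5 in PGCCs. CD274, which encodes the checkpoint ligand PD-L1, stood at 13.6 TPM in the parental library, 36.2 in the PGCC and 7.29 in the daughter library.

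The proximal promoters of these genes were searched for the κB core GGANTTTCC on either strand in the 250 bases before the RefSeq start (GRCh38.p14). Of the 53 genes of the inflammation lists that were higher and had a promoter in the table, 14 (26.4%) held the core, and of the 102 that were neither, 9 (8.82%) did. It was held by 1.44% of all 9986 measured genes with a promoter and by 1.47% of all 27305 gene symbols in the table. Among all 646 genes called higher with a promoter, in any list or none, 20 (3.10%) held it. Within the lists, the median GC content of the promoters was 54% for higher genes and 62.8% for those that were neither. The lists include genes known for κB control, so these shares are a description of the lists. The 3 genes of these lists with the largest increase among those holding the core are shown because the match can be seen in the letters; capitals mark the core on either strand.
CXCL8 (chr4:73740319-73740568, plus strand): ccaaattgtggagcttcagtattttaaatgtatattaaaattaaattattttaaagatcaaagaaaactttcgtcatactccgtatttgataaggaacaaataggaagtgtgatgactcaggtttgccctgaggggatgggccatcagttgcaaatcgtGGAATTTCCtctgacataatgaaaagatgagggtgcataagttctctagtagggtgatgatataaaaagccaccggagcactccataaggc
IL6 (chr7:22726950-22727199, plus strand): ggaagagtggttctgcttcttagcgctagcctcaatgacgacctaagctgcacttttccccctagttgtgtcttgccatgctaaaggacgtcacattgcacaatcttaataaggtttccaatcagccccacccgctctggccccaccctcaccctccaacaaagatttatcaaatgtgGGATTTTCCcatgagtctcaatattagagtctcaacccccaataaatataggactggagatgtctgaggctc
IL32 (chr16:3065153-3065402, plus strand): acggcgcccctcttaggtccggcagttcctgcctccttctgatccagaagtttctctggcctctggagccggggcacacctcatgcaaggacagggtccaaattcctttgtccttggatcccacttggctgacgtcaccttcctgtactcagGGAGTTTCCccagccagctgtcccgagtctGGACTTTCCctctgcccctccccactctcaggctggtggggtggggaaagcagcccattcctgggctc

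The core began at position -91 from the start in CXCL8 and at position -72 in IL6, and IL32 held 2 cores, at positions -98 and -68. CXCL8 also held the AP-1 motif TGANTCA. A letter match is not evidence of binding, and no binding was measured here.

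Extracellular proteases and protease inhibitors were both among the higher genes. Of 22 measured matrix metalloproteinases, related proteases and inhibitors 7 were higher and 1 lower, with a median change of 0.53. The interstitial collagenase MMP1 read 1.41 TPM in the parental library, 98.1 in the PGCC and 0.951 in the daughter library. In SKOV3 it was high in parental cells at 344 TPM and lower in PGCCs at 114. Stromelysin MMP3 read 0.0553 TPM in Hey parental cells and 35.3 in PGCCs, and MMP10 0.0576 and 3.87. The plasminogen activator PLAT stood at 22.6 and 126 TPM beside its inhibitor SERPINB2. Of 16 measured serpins and other protease inhibitors 8 were higher and none lower, with a median change of 1.33. TFPI2, an inhibitor of plasmin and tissue factor, read 92.9 and 726 TPM, and SERPINB7 11.1 and 88.3. The elastase inhibitor PI3 was listed at 0 in parental cells and reached 24.7 TPM, and SLPI read 1.36 and 14.5. Collagens and other matrix genes had a median change of 0.30, with 4 of 27 higher and 1 lower, against 10.6% and 5.77% of all measured genes. Fibronectin FN1 went from 709 to 1568 TPM, and the lysyl oxidase-like gene LOXL1 was lower at 11.6 and 2.57.

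Ligands of the EGFR family were higher while the receptor was not. Of 9 measured genes 5 passed the threshold, all of them ligands. AREG (amphiregulin) read 0.429 TPM in the parental library, 20.3 in the PGCC and 1.49 in the daughter library, and NRG1 (neuregulin 1) 3.999, 39.04 and 20.6. HBEGF stood at 28.5 and 61.4 TPM, TGFA at 26.7 and 61.7, and EREG at 0.1697 and 2.39. EGFR itself read 164 TPM in parental cells and 93.4 in PGCCs. In the TGF-β family list 6 of 29 genes were higher and 1 lower. GDF15, a secreted stress cytokine, stood at 11.2, 129 and 22.6 TPM in parental cells, PGCCs and daughter cells. INHBA, which encodes the activin A subunit, read 51.7 and 123.1 TPM beside its inhibitor FST at 3.41 and 13.1.

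Targets and regulators of the Hippo and WNT pathways had a median change of -0.41, with 2 of 25 genes higher and 4 lower. The YAP targets CCN1 (459 and 106 TPM) and CCN2 (1069.6 and 477) were lower, but ANKRD1, another known target, was higher at 1.89 and 20.5. The WNT inhibitor SFRP1 stood at 184 and 65.5 TPM and DKK1 at 193 and 409. The Notch target HES1 had the second largest decrease of all protein-coding genes, at 88.1 TPM in the parental library, 5.14 in the PGCC and 19 in the daughter library. SKOV3 HES1 read 179 TPM in parental cells and 55.1 in PGCCs. Of 12 measured genes of the stem cell list, HES1 and SOX9 (16.1 and 7.196 TPM) were lower and only CD24 was higher, at 2.72 and 12.7. ABCB1, the drug efflux pump, read 0.195 TPM in parental cells and 1.601 in PGCCs, against 43.3 in the daughter cells.

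Genes of cell division were lower in each of 8 lists, from DNA replication to cytokinesis. Of 226 measured genes in the 8 cell division lists 172 (76.1%) were lower, against 5.77% of all measured genes, and none was higher, with a median change of -1.65. These lists too were chosen with earlier results known, so the contrast describes the lists. In SKOV3 PGCCs 59 of these genes, measured by their TPM in Hey, were lower and 6 higher, with a median of -0.61. The share over all SKOV3 genes is not given, and the difference between the lines was not tested. Summed over the mitotic cyclins, kinases and their activators, TPM stood at 3040 in the parental, 1043 in the PGCC and 3950 in the daughter library.

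In replication 31 of 39 genes of licensing and the fork were lower, with a median change of -1.58. The replicative helicase subunits MCM5 (75.2 TPM in parental cells and 14.7 in PGCCs) and MCM3 (91.4 and 18.8) had the largest changes of this list, and MCM7 read 87.7 and 20.1 TPM. The licensing factor CDT1 read 9.36 and 1.44 TPM in Hey and went the other way in SKOV3, 6.57 and 16.8. Nucleotide supply followed, with 10 of 15 genes lower. The ribonucleotide reductase subunit RRM2 stood at 114 TPM in the parental library, 22.1 in the PGCC and 115 in the daughter library, and thymidine kinase TK1 at 53.3, 12.2 and 70.96.

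In mitosis 31 of 36 cyclins, kinases and activators were lower, with a median change of -1.76. AURKB, the kinase of the chromosomal passenger complex, read 47.99 TPM in the parental library, 5.704 in the PGCC and 84.8 in the daughter library. Cyclin A2 (CCNA2) stood at 63.8, 9.84 and 68.4 TPM, and cyclin B1 (CCNB1) at 235, 55.9 and 342. Its partner CDK1 read 151, 47.2 and 167 TPM. In each case the PGCC library was the lowest of the 3 Hey libraries. The list with the most uniform decrease was that of kinesins, spindle and cytokinesis genes, 32 of 33 lower with a median of -1.90. The minus-end kinesin KIFC1 read 60.6 and 7.44 TPM, and the cytokinesis scaffold ANLN (anillin) 195 and 33.3. Centromere and kinetochore genes were lower in 25 of 33 cases, with INCENP, the passenger complex scaffold, at 26.6 and 3.47 TPM. Condensins, cohesins and topoisomerase were lower in 12 of 17 cases, with TOP2A at 229 TPM in the parental library, 37.2 in the PGCC and 249 in the daughter library. The condensin subunit NCAPH read 44.1, 6.22 and 80.7 TPM, and the proliferation marker MKI67 60.5, 9.79 and 108.

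**Figure D3:**
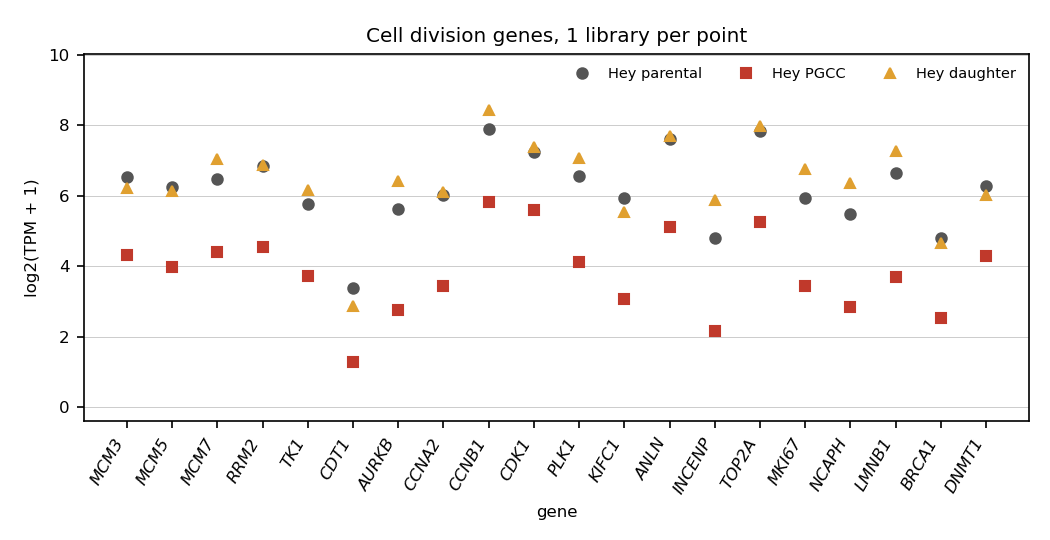
Levels as log2(TPM + 1) of 20 cell division genes in Hey parental cells (grey circles), PGCCs (red squares) and daughter cells (orange triangles), 1 library per point. For each gene the PGCC library is the lowest of the 3, for example 37.2 TPM for TOP2A against 229 in parental and 249 in daughter cells.

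Repair by homologous recombination was part of the same decrease, 24 of 32 genes with a median of -1.51. BRCA1 stood at 26.97 TPM in parental cells and 4.73 in PGCCs, and the Fanconi anaemia gene FANCD2 at 22.7 and 5.201. The G1 cyclins, E2F and RB families moved least, with 7 of 21 genes lower and a median of -0.54. E2F1 read 8.67 and 1.97 TPM, cyclin E2 (CCNE2) 24.3 and 7.04, and the ubiquitin ligase subunit SKP2 31.9 and 9.08.

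Promoters of these genes were searched for the CHR element TTTGAA, the letters through which DREAM and MYB-MuvB complexes are known to bind, and for CCAAT, on either strand. Of the 142 genes that were lower and had a promoter, 40 (28.2%) held the CHR letters and 87 (61.3%) held CCAAT. Among the 46 that were neither, the shares were 5 (10.9%) and 17 (36.96%), and among all 9986 measured genes with a promoter they were 8.50% and 35.5%. The E2F motif TTTNGCGC was held by 15 (10.6%) of the lower genes, by 3 (6.52%) of those that were neither, and by 2.53% of all measured genes with a promoter. Of all 567 genes called lower with a promoter, in any list or none, 17.1% held the CHR letters, 46.6% CCAAT and 5.29% the E2F motif. The lists hold known cell division genes and were chosen with earlier results of these data known, so these shares are a description of the lists. The 3 genes with the largest decrease that held the CHR letters are shown, with those letters in capitals on either strand.
INCENP (chr11:62123761-62124010, plus strand): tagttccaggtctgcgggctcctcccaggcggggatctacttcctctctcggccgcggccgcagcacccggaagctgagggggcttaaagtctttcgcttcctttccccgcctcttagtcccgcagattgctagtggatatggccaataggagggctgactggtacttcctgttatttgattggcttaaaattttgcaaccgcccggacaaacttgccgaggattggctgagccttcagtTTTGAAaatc
TOP2A (chr17:40417897-40418146, minus strand): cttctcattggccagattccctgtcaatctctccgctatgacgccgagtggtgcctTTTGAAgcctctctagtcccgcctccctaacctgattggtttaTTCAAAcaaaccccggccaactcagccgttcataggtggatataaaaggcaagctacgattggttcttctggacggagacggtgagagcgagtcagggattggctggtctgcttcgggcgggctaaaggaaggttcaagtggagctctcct
ANLN (chr7:36389612-36389861, plus strand): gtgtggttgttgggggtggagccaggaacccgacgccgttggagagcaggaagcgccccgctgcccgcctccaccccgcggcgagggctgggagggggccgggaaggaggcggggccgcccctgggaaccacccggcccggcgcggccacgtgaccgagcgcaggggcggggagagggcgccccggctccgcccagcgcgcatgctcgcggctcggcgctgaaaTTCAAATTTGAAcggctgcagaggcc

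The CHR letters began at position -10 in INCENP, at positions -194 and -151 in TOP2A and at positions -26 and -20 in ANLN. INCENP and TOP2A also held CCAAT. As for the κB core, a letter match is not evidence of binding, and no binding was measured here.

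Of 58 measured genes in the lists of arrest and senescence 11 were higher (18.97%, against 10.6% of all measured genes) and 7 were lower (12.1%, against 5.77%), so most were neither. Of 5 measured CDK inhibitors only CDKN1A, which encodes p21, passed the threshold, at 148 TPM in the parental library, 480.0 in the PGCC and 89.4 in the daughter library. In SKOV3, CDKN1A stood at 4.76 TPM in parental cells and 6.84 in PGCCs. CDKN2A was under 1 TPM in both Hey libraries. Of 25 measured p53 target genes 7 were higher and none lower, with a median change of 0.66. MDM2, the ubiquitin ligase that p53 induces against itself, read 121 TPM in the parental library, 672 in the PGCC and 269 in the daughter library. GADD45A stood at 173 and 565 TPM, TP53INP1 at 13.6 and 48.3, and TP53I3 at 12.3 and 40.9. In SKOV3 the MDM2 reading was 36.3 TPM in parental cells and 17.96 in PGCCs. Of 17 BCL2 family genes 3 were higher, among them the survival gene BCL2A1 with 56.8 and 131 TPM.

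The nuclear lamina and high-mobility-group list was lower in 7 of 13 genes, with a median change of -1.36. LMNB1, which encodes lamin B1 and is known to fall in senescent cells, read 99.6 TPM in the parental library, 12.01 in the PGCC and 154 in the daughter library. HMGB2 stood at 359 and 100.4 TPM, HMGB1 at 839.8 and 317, and the lamina-associated TMPO at 207 and 44.8. Chromatin maintenance genes were lower in 8 of 18 cases. The maintenance methyltransferase DNMT1 read 76.6 and 18.4 TPM, and its partner UHRF1 19.03 and 3.39.

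Histone genes stood apart from the other genes linked to S phase. Of 65 replication-dependent histone genes 22 were measured, 16 were higher and 1, H4C8, was lower, with a median change of 1.56. The linker histone H1-2 read 3.41 TPM in the parental library, 46.9 in the PGCC and 12.8 in the daughter library, and H2BC5 5.85, 32.7 and 4.14. H2BC4 stood at 2.31 and 22.2 TPM, and H2AC6 at 14.6 and 48.2. H2AC19 was listed at 0 in parental and daughter cells and at 13.2 TPM in PGCCs. With histone genes of any TPM above 0 counted, the median was 0.36. Histone genes of a class are close copies of each other, so the division of reads among them is uncertain, and most of their transcripts end without a poly(A) tail. Whether the library preparation selected poly(A) RNA is not given in the sources used here.

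**Figure D4:**
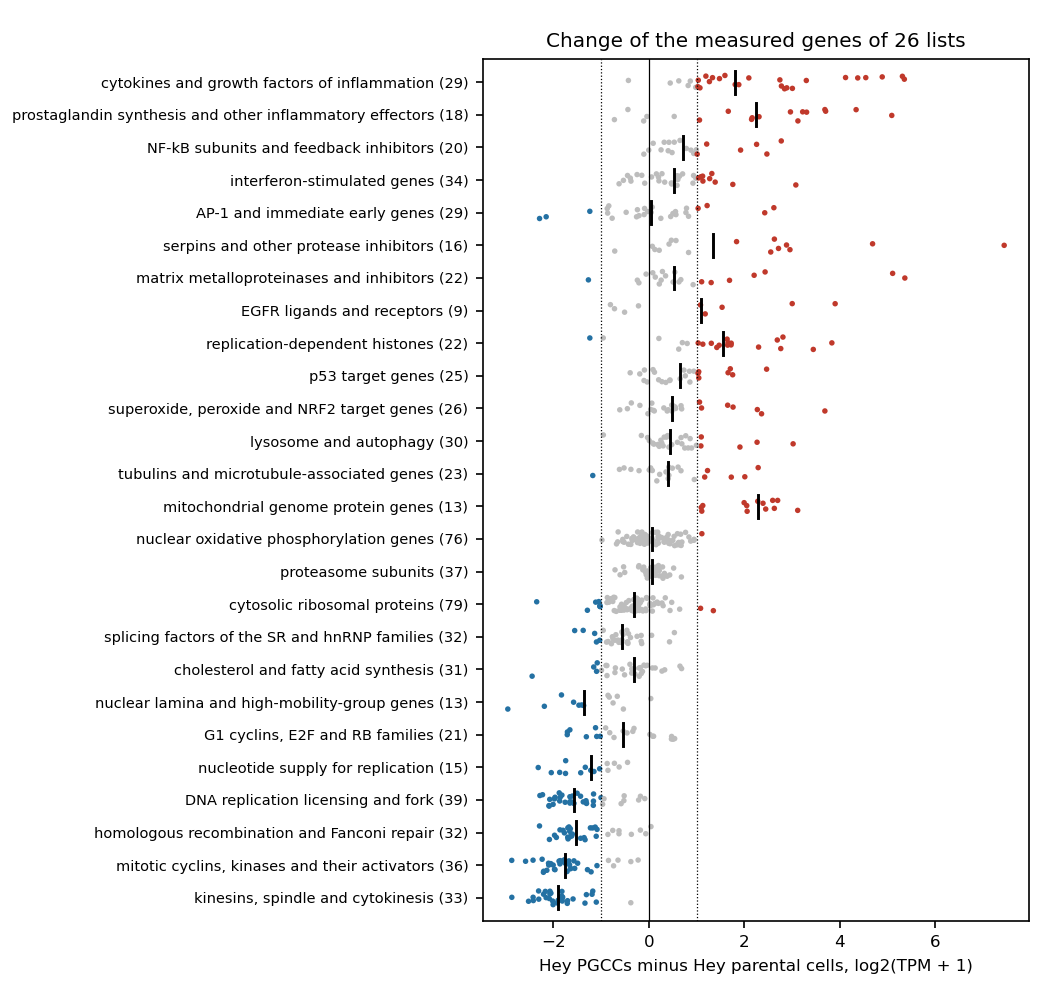
Change of the measured genes of 26 lists, as log2(TPM + 1) in Hey PGCCs minus Hey parental cells, with 1 point per gene, the number of measured genes in parentheses and a bar at the median. Red and blue points are past the 2-fold change marked by dotted lines; medians run from 2.28 for the mitochondrial genome protein genes to -1.90 for the kinesins, spindle and cytokinesis genes.

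The largest gain in abundance came from the mitochondrial genome. All 13 of its protein genes and both ribosomal RNAs were higher, and its share of the summed TPM was 2.64% in the parental, 12.3% in the PGCC and 7.60% in the daughter library. The 13 protein genes together stood at 22231 TPM in the parental, 100347 in the PGCC and 65751 in the daughter library, with a median change of 2.28. MT-CO1, a cytochrome c oxidase subunit, read 2366 and 15349.8 TPM. MT-ND5, a complex I subunit, had the largest change of the 13, with 166 and 1445 TPM. In SKOV3 the median change of these genes was -0.07. The nuclear genes of oxidative phosphorylation, which supply the other subunits of the same complexes, had a median change of 0.07 with 1 of 76 higher and none lower. A nuclear pseudogene of the same sequence, MTATP6P1, read 242 and 1463 TPM, and its reads cannot be told apart from those of the mitochondrial gene.

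**Figure D5:**
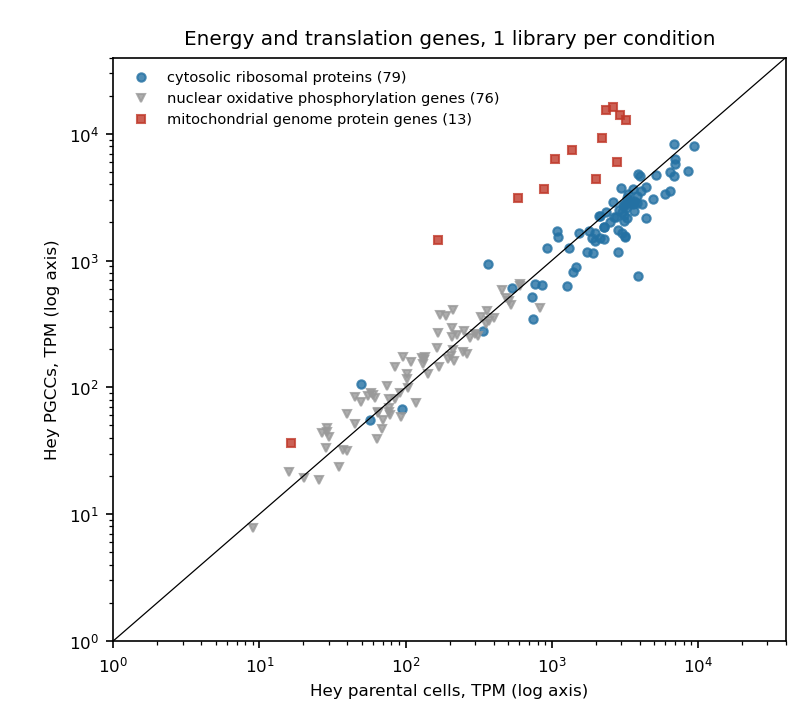
TPM in Hey parental cells (horizontal, log axis) and Hey PGCCs (vertical, log axis) of the 13 mitochondrial genome protein genes (red squares), 76 nuclear oxidative phosphorylation genes (grey triangles) and 79 cytosolic ribosomal protein genes (blue circles), 1 library per axis. The line marks equal levels; all 13 mitochondrial genes lie above it, the nuclear genes scatter around it and 62 of the 79 ribosomal protein genes lie below it.

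TPM is a share of the library, so a larger share for one family leaves less for the others. Cytosolic ribosomal protein genes stood at 240927 TPM in the parental, 192515 in the PGCC and 194146 in the daughter library, with a median change of -0.30, 2 of 79 higher and 7 lower. With the mitochondrial genome left out that median was -0.15 and 2 genes were lower. RPL4 departed from the family, at 3884 TPM in the parental library, 762 in the PGCC and 1896 in the daughter library. RPS27L, a ribosomal protein paralogue known as a p53 target, was higher at 365 and 932 TPM. The elongation factor EEF1A1 had the largest loss in TPM, from 20251 to 12969, a change of -0.64, and 8 of the 10 genes with the largest loss encode ribosomal proteins or this factor. Splicing factors of the SR and hnRNP families had a median change of -0.56, with 5 of 32 lower, and 2 lower with the mitochondrial genome left out. HNRNPU read 394 and 134 TPM and HNRNPA1 2182 and 842. Of 37 measured proteasome subunits none was past the threshold, and their changes lay between -0.71 and 0.68.

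Among nuclear genes the ferritin chains gained most alongside CXCL8. FTL, the ferritin light chain, read 2137 TPM in the parental library, 6963 in the PGCC and 1811 in the daughter library, and the heavy chain FTH1 2119, 4701 and 1907. Ferritin stores iron and is induced by NRF2 and by inflammatory signals. Of 26 measured genes of the NRF2 and peroxide list 7 were higher and none lower, with a median change of 0.48. Heme oxygenase HMOX1 stood at 9.54 and 49.9 TPM, AKR1C1 at 9.82 and 54.5, and the glutathione synthesis subunit GCLM at 5.85 and 22.3. Lysosome and autophagy genes had 5 of 30 higher, none lower and a median of 0.45. Cathepsin S (CTSS) read 8.24 TPM in the parental library, 73.9 in the PGCC and 13.2 in the daughter library, and GABARAPL1, an ATG8 protein of the autophagosome, 28, 138 and 15.96. The autophagy receptor SQSTM1 stood at 278 and 596 TPM.

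Of 27 genes of the unfolded protein and integrated stress response 2 were higher and 4 lower, with 21 neither and a median change of -0.14. DDIT3, which encodes the transcription factor CHOP, read 16.7 and 87.9 TPM and ERN1, the endoplasmic reticulum stress sensor, 4.29 and 13.1. The ATF4-controlled enzymes of serine, glycine and asparagine synthesis were lower in the same list. PHGDH read 278 and 74.99 TPM, SHMT2 376 and 159.6, PSAT1 906 and 403, and ASNS 369.9 and 179.7. In lipid synthesis 4 of 31 genes were lower and none higher. The stearoyl-CoA desaturase SCD stood at 149 TPM in the parental library, 26.5 in the PGCC and 80.6 in the daughter library, and the transcription factor SREBF2 at 46.7 and 21.6. In the glycolysis and hypoxia list 5 of 28 genes were higher, among them P4HA2 (8.73 and 25.9 TPM), and 1, PFKL, was lower. The median change of that list was -0.21, with 18 of the 28 below 0, and its members summed to 12406 TPM in parental cells and to 9640 in PGCCs. Of 20 heat shock chaperones 3 were higher and none lower, with 12 below 0 and a median change of -0.22. The list summed to 8670 TPM in parental cells and 5960 in PGCCs. The co-chaperone DNAJB4 read 21.1 and 73.5 TPM, and the small heat shock genes CRYAB (0.198 and 3.54) and HSPB8 (0.0592 and 3.79) stayed low.

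Tubulin genes, whose products are the target of paclitaxel, were higher for some isotypes, while an abundant one differed little. Of 23 measured tubulins and microtubule-associated genes 5 were higher and 1 lower, with a median change of 0.41. TUBA1A read 50.3 TPM in the parental library, 249.6 in the PGCC and 51.2 in the daughter library. TUBB2A stood at 5.68, 25.9 and 6.18 TPM, and the neuronal isotype TUBB3 at 4.74, 17.98 and 8.75. TUBA1B, at 1199 and 1347 TPM, differed by less than 2-fold. Tubulin genes resemble each other, so reads can be divided between them. STMN1, which encodes a microtubule destabilizer, was lower at 556 and 246 TPM. Cytoplasmic actin genes were lower, ACTB at 3105 and 1379 TPM and ACTG1 at 1667 and 754, and the non-muscle myosin gene MYH10 at 18.6 and 6.65. Of 29 measured genes of the actin list 1 was higher and 4 were lower.

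Among nuclear long noncoding RNAs 3 of 8 measured genes were higher. NEAT1, the scaffold of paraspeckles, read 40.5 TPM in the parental library, 429.8 in the PGCC and 173 in the daughter library, and MALAT1 of nuclear speckles 42.6, 285 and 76.8. In SKOV3 MALAT1 read 269.8 TPM in parental cells and 122 in PGCCs.

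Several of the largest changes rest on genes whose reads are hard to place. U2AF1, a splicing factor gene, had the largest decrease of all protein-coding genes, at 78.2 TPM in parental cells and 2.86 in PGCCs. Its near-identical copy U2AF1L5 was at 107 and 113 TPM in the same libraries. Outside protein-coding genes the largest increases were AC022149.1, FABP5P7 and RPL22P1, all listed at 0 in parental cells and at 197, 77.01 and 64.9 TPM in PGCCs, of which FABP5P7 and RPL22P1 are pseudogenes. The largest decreases were RNU6-125P (71.7 TPM), RNA5-8SN2 (61.6) and MIR573 (43.6), all listed at 0 in PGCCs. These 3 are small RNA genes. Of 187 measured genes with transcripts under 300 bases 57.2% were higher and 18.7% lower. NOL12 (18.5 and 0.368 TPM), whose gene overlaps a neighbouring locus, DENND2A (17.5 and 0.6501) and TMCO6 (7.58 and 0.105) had the largest decreases after U2AF1 and HES1. Others among the 15 largest decreases were TMEM237 (24.8 and 3.24 TPM), MND1 (30.4 and 4.29) and CDCA7 (52.5 and 8.11). Among the 15 protein-coding genes with the largest increase, SUGCT, a coenzyme A transferase gene, was the 1 as high in daughter cells, at 5.103 TPM in the parental library, 97.97 in the PGCC and 104 in the daughter library.

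Genes past the threshold were also counted by position. Of 1154 windows of 1 Mb (GRCh38, GENCODE release 44) with at least 4 measured protein-coding genes, 32 held 3 or more genes that were higher and 26 held 3 or more that were lower. No share that chance gives was computed for such windows, and the fullest ones hold gene families. The window at 26 to 27 Mb of chromosome 6, the main histone cluster, held 9 higher genes of 19. At 12 to 13 Mb of chromosome 19, 8 zinc finger genes of 33 measured genes were higher and 3 other genes were lower. At 74 to 75 Mb of chromosome 4, 5 of 6 genes were higher, namely CXCL3, CXCL2, MTHFD2L, EREG and AREG. At 102 to 103 Mb of chromosome 11, 4 of 7 were higher, the protease genes MMP10, MMP1 and MMP3 with their neighbour BIRC3. At 63 to 64 Mb of chromosome 18 lay 4 higher serpin genes of 8. Among windows with lower genes the highest count was 6 of 33, at 31 to 32 Mb of chromosome 6, where 1 gene was higher. Medians of whole chromosomes ran from -0.15 on chromosome 16 to 0.02 on chromosome X.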

How the data were processed

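Total RNA of 6 cultures, 1 per state of the Hey and SKOV3 lines, was sequenced, and only the Hey PGCC and Hey parental libraries entered the comparison. Per the submitters' processing notes, reads were handled with fastp and quantified with Salmon 0.14.1 on hg38. The authors deposited TPM values, 1 per gene symbol and library; the annotation release, the step from transcripts to genes and strandedness are not given in the sources used here. The study's methods give a total of mapped reads per sample, but the TPM values hold no counts per gene, so the counting error of a gene is unknown and no count test was used.

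The change was log2(TPM + 1) in Hey PGCCs minus that in Hey parental cells, with a pseudocount of 1, for each gene reaching 1 TPM in either library, and a gene was called at a difference of 1. With 1 library per condition no p-value was computed. Genes were described in 54 lists by their counts and medians. The members and lists were chosen with earlier results of these data known. Named genes were the 15 protein-coding genes with the largest increase and the 15 with the largest decrease, the 10 with the largest gain and the 10 with the largest loss in TPM, the 3 other genes with the largest change in each direction, and up to 4 members of each list by size of change plus its best known member. Further list members in the text, such as CXCL1, CXCL2, RELA, EGFR and TUBA1B, and the gene U2AF1L5 were named with their values seen. By symbol 12690 measured genes matched a single GENCODE release 44 gene, 108 matched several and 1542 none. Promoters were the 250 bases before the start in the RefSeq table, 1 per symbol, the first listed, for 9986 measured genes. The calling and scaling steps were run on the parental values with known changes put into well-expressed genes. This checks the arithmetic of those steps and says nothing of calls at low TPM or of the annotation, list and promoter steps. Python 3.11.15, numpy 2.4.6, pandas 2.3.3, scipy 1.17.1 and matplotlib 3.10.9 were used.

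The alternatives were a pseudocount of 0.1, no filter on low TPM, a filter at 5 TPM, median-ratio scaling, quantile normalization, the mitochondrial genome left out, protein-coding genes only, and thresholds of 1.5-fold and 3-fold.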

Additional observations from a re-analysis of the deposited data

Results flagged for a closer look

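Of 212 measured genes that the naming rule covered, 17 were past the 2-fold change with opposite signs in Hey and SKOV3 PGCCs. In Hey, 6 of these were higher and 11 lower. Of all 14340 measured genes, 195 had such opposite changes. The naming rule picked genes largely by the size of their change in Hey, so its count cannot be set against that of all genes. The difference between the lines was not tested, each line has 1 library per state, and the titles give the SKOV3 PGCCs as day 7. All values below are changes in log2(TPM + 1), PGCCs minus parental cells.

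Among genes higher in Hey PGCCs, the collagenase gene MMP1 had a change of 5.36 in Hey and -1.59 in SKOV3. The nuclear RNA MALAT1 had changes of 2.71 and -1.14, the metallothionein MT1X 1.63 and -1.04, and the translation factor subunit EIF3L 1.15 and -1.77. Of the pseudogenes, FABP5P7 had changes of 6.29 and -1.25 and RPL22P1 6.04 and -5.06, with listed values of 0 in 1 library of each pair for RPL22P1.

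Among genes lower in Hey PGCCs, the matricellular gene CCN1 had a change of -2.11 in Hey and 3.42 in SKOV3. The immediate early gene FOS had changes of -2.15 and 1.096, the replication licensing factor CDT1 -2.09 and 1.24, and the pyrimidine synthesis enzyme CAD -1.87 and 1.05. LOXL1, a cross-linking enzyme of the matrix, had changes of -1.81 and 1.36. In metabolism, the sterol regulator SREBF2 had -1.08 and 1.30 and the glycolytic enzyme PFKL -1.11 and 1.32. The cytoskeletal actin ACTG1 had -1.14 and 1.03, the ribosomal protein RPL8 -1.11 and 1.82, and EIF3CL, a close copy of another translation factor gene, -1.33 and 1.09. The ribosomal RNA gene RNA5-8SN2 had -5.97 and 5.48, with listed values of 0 in 1 library of each pair.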

How the results depend on the processing

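No paired analysis was possible because each condition has 1 library, and for the same reason no library could be left out. Against 1520 higher and 828 lower genes, 64.7% of those called being higher, the share that was higher moved to 67.0% with a pseudocount of 0.1, 50.6% with a filter at 5 TPM, 69.5% with median-ratio scaling, 53.3% with quantile normalization, 75.1% with the mitochondrial genome left out, 53.1% with protein-coding genes only, 57.6% at a 1.5-fold threshold and 66.7% at 3-fold. The number of higher genes became 2291 with a pseudocount of 0.1, 719 with the filter at 5 TPM, 741 with protein-coding genes only, 3051 at 1.5-fold and 534 at 3-fold. The number of lower genes became 2242 at 1.5-fold and 267 at 3-fold. The median change of all genes was 0.16 with the mitochondrial genome left out, against 0.01. Without a filter on low TPM the counts and the share stayed at their values. Of 972 counts of higher or lower genes in the lists, 165 moved by more than 1.5 times or to or from 0, of which 53 at the 1.5-fold and 45 at the 3-fold threshold, and 15 of 108 with the filter at 5 TPM. With that filter, which tests fewer genes, the higher genes became 4 instead of 7 for the cytokine receptors, 4 instead of 7 for the metalloproteinases, 1 instead of 4 for the collagens, 1 instead of 3 for the BCL2 family, 3 instead of 5 for glycolysis and hypoxia, 1 instead of 3 for the heat shock chaperones, and 0 instead of 2 for the fibroblast markers. Of 376 medians of the 54 gene lists under these alternatives, 368 kept their side of the 2-fold threshold, 2 moved past it and 6 fell short of it. Those 6 were, without a filter, the histones (0.36), the serpins and other protease inhibitors (0.56) and the EGFR ligands and receptors (0.48), and the fibroblast markers under 3 alternatives. Of 299 changes of named genes under the pseudocount, scaling and gene-set alternatives, 294 kept their side of the threshold, 2 moved past it and 3 fell short of it, all 3 of these RPLP0. Without replicates and without counts, the values have no error, and 391 of the genes called higher were listed at 0 in parental cells.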
